A study of Mus musculus with 8 samples.

Results

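Atg2a and 9 other genes of the autophagy machinery were followed in cardiac macrophages of endocardial origin and in those without it. Autophagy wraps cytoplasm in a new double membrane, the autophagosome, and delivers it to the lysosome. A kinase complex starts the process, a lipid kinase complex marks the site, lipid transfer proteins feed the growing membrane, and a conjugation cascade attaches proteins of the ATG8 family, which hold cargo receptors. In macrophages, which take up and digest large amounts of material, parts of the same cascade also act on phagosomes. The members are Atg2a, Atg2b, Atg3, Atg5, Atg7, Atg9a, Atg16l1, Becn1, Ulk1 and Sqstm1, chosen by symbol, 10 of the 24516 genes in the table. Atg2a was picked from the comparison described here, as 1 of 17 genes past an adjusted p of 0.05 in a DESeq2 fit with libraries paired by number. Its value there was 0.0450. The difference of Atg2a between the groups is therefore given as a description, and no test of it is used as support. The question is how the other members stood beside it. Atg2a was lower in every EcTM library than in any non-EcTM library. Its paralogue Atg2b had a smaller difference in the same direction with overlapping groups, and Becn1, Atg3 and Sqstm1 went different ways in different pairs. In edgeR with the group alone none of these 4 passed an adjusted p of 0.05, but neither did Atg2a or any other of the 7667 genes tested. The other 5 members had too few counts to compare.

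EcTM are macrophages that the labels call endocardially derived, and non-EcTM are cardiac macrophages that the labels call not endocardially derived. Each group has 4 libraries, E591, E592, E604 and E606 for EcTM and N591, N592, N604 and N606 for non-EcTM. Sorting by FACS took both from the heart at postnatal day 28, in the C57BL/6 strain with the genotype Nfatc1Cre/+; Rosa26Tomato reporter/+, so the Cre and reporter alleles are shared by the groups. Cre is driven from Nfatc1, a gene of the endocardium, and a cell that once expressed it, and its descendants, keep the reporter colour. Sort gates were not stated. What a number in a library's name stands for (an animal, a litter, a day) is not stated, and p-values measure the spread between these libraries, which may be technical. Stranded total RNA libraries were sequenced, with 2152425 to 2576407 counts in genes per EcTM library and 2281657 to 2937464 per non-EcTM library.

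The macrophage label was checked against 12 markers, of which 11 had counts. Itgam was listed at 0 in all 8 libraries. Their summed level was 23873 to 25003 CPM in EcTM, against 22223 to 24379 in non-EcTM. CPM are counts relative to the library's total over the 7667 genes tested, scaled with TMM factors. Summed markers of other heart cells were low, and N591 stood apart. Several of these markers stood at 0, as Itgam did, and a 0 is not read here as absence of the transcript. Low sums are therefore no measure of purity. The 10 endothelial markers summed to 35.1 to 253 CPM in EcTM, against 708 in N591 and 74.0 to 121 in N592, N604 and N606, with Pecam1, Tek, Emcn and Esam at 0. The 9 mural markers summed to 79.5 to 99.6 CPM in EcTM, against 295 in N591, 205 in N604 and 77.5 to 102 in N592 and N606, with Pdgfrb, Myh11 and Kcnj8 at 0. The 11 cardiomyocyte markers summed to 78.1 to 144 CPM in EcTM, against 95.1 to 175 in non-EcTM, with Myh6, Tnnt2 and Pln at 0. The 9 fibroblast markers summed to 128 CPM in E591 and 27.2 to 47.8 in the other EcTM libraries. In non-EcTM they summed to 196 in N591 and 26.2 to 41.6 in the other libraries, with Pdgfra and Postn at 0. E591 was also the highest EcTM library in the endothelial, mural and cardiomyocyte sums. The log2 fold change of Atg2a was -0.45 without N591 and -0.44 without N604, but the Atg2a levels of these libraries (229 and 233 CPM) lie near the non-EcTM mean, so that leaving them out could move it little. In edgeR with the group alone, 3 of 3 tested endothelial and 5 of 5 mural markers had a log2 fold change below 0. So did 5 of 7 cardiomyocyte, 1 of 3 fibroblast and 2 of 11 macrophage markers, against 48.7% of all tested genes. The part of other cells in the values was not tested.

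Atg2a encodes a rod-shaped protein that moves lipids from the endoplasmic reticulum to the growing autophagosome, and also acts at lipid droplets. It lies on chromosome 19 from 6241478 to 6262304 on the plus strand (GRCm38, the assembly that mm10 names) and overlaps no other gene in the GENCODE annotation. Its counts were 335, 376, 418 and 394 in E591, E592, E604 and E606, against 576, 652, 535 and 584 in N591, N592, N604 and N606. In CPM these were 160, 168, 183 and 156 in EcTM, in the same order of libraries, against 229, 255, 233 and 193 in non-EcTM. Every EcTM library lay below every non-EcTM library, and the groups did not overlap. The step between them was narrow, since E604 at 183 CPM and N606 at 193 CPM stood closer than the SD of either group. Atg2a averaged 167 ± 12.3 CPM in EcTM, against 228 ± 25.9 in non-EcTM (SD, n = 4 each). The log2 fold change of EcTM over non-EcTM was -0.45 ± 0.13 (SE), or 0.733 of the non-EcTM level. Within the pairs, the log2 ratio was -0.52 for E591 over N591, -0.60 for E592 over N592, -0.35 for E604 over N604 and -0.31 for E606 over N606, so Atg2a was lower in EcTM in 4 of 4 pairs. Over the 7667 genes tested, 6.89% were lower in EcTM in 4 of 4 pairs and 1.41% were lower with no overlap between the groups. The log2 values that the authors deposited stood at 8.62 to 8.79 in EcTM and 8.84 to 9.16 in non-EcTM. In sorted bulk samples, fewer cells with the transcript and less of it per cell cannot be told apart.

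Atg2b, the paralogue with the same lipid transfer activity, lies on chromosome 12 from 105613539 to 105685297 on the minus strand. Atg2b overlaps Gskip and the rRNA gene Gm22790, both on the other strand. It had 65.7, 79.5, 92.1 and 59.6 CPM in E591, E592, E604 and E606, against 85.4, 77.9, 104 and 80.2 CPM in N591, N592, N604 and N606. The groups overlapped, with E604 above 3 of the 4 non-EcTM libraries. Atg2b averaged 74.3 ± 14.5 CPM in EcTM, against 86.9 ± 12.0 in non-EcTM (SD, n = 4 each). It was lower in EcTM in 3 of 4 pairs, with log2 ratios of -0.37 for E591 over N591, -0.18 for E604 over N604 and -0.42 for E606 over N606, and 0.03 for E592 over N592. Its log2 fold change was -0.23, with a 95% interval of -0.63 to 0.18 and an adjusted p of 0.998 (edgeR quasi-likelihood test, group alone, over all 7667 genes). That interval holds both 0 and the value of Atg2a. Both genes have 1 curated RefSeq transcript, which allows a comparison of levels per length. Atg2a stood at 26.2 ± 1.93 CPM per kilobase in EcTM and 35.7 ± 4.06 in non-EcTM, and Atg2b at 9.84 ± 1.93 in EcTM and 11.5 ± 1.59 in non-EcTM, so Atg2a was the more abundant paralogue in both groups.

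The promoters of the paralogues are shown because these genes share an activity and their values across the pairs are set side by side above, and that of Atg3 because it carries the E-box bound by the lysosome and autophagy regulators TFEB, TFE3 and MITF. Each window runs from 250 bases before to 50 after the start that the RefSeq promoter table uses (GRCm38.p6), 5′ to 3′ on the gene's strand. That start is base 6241668 for Atg2a, 190 bases inside the gene span given above, base 105685241 for Atg2b, 56 bases inside its span, and base 45158829, the first of the span, for Atg3. The matches marked in the Atg2a window therefore lie upstream of the table's start but within the gene span. The windows are chr19:6241418-6241717 (plus) for Atg2a, chr12:105685192-105685491 (minus) for Atg2b and chr16:45158579-45158878 (plus) for Atg3. Capitals mark CACGTG in Atg3, and CCAAT or its reverse complement ATTGG in Atg2a.
Atg2a: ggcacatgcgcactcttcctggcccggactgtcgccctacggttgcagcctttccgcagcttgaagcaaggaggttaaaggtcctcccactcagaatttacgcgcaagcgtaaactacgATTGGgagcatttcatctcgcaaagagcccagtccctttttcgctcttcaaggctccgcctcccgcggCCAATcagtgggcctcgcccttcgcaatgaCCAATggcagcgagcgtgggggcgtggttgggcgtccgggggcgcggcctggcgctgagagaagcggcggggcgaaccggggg
Atg2b: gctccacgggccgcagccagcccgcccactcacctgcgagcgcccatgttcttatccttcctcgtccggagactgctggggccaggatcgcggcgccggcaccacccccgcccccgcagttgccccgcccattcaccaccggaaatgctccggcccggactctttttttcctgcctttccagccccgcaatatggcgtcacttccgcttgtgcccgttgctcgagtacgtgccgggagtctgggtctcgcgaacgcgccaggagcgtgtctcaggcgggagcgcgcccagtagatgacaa
Atg3: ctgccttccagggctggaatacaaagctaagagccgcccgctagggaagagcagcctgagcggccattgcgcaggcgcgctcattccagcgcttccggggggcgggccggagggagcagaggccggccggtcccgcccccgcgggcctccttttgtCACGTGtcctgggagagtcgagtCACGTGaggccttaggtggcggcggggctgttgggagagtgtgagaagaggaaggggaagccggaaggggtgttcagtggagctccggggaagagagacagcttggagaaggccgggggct
Each motif was searched on both strands, and none overlapped another in these windows. The E-box CACGTG was found in 3 of the 8 member promoters with an entry, those of Atg3, Atg5 and Atg7, and in 7.15% of all 32851 promoter windows. The cyclic AMP element TGACGTCA was found in that of Atg5 and in 1.79% of all windows. The PU.1-type sequence GAGGAAGT was found in 0 of the 8 and in 3.2% of all. The CCAAT box CCAAT, added after the Atg2a window had been read, was found in those of Atg2a, Atg7 and Atg9a and in 37.4% of all. A match is a description of these letters, not a binding site.

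Of the 10 members, 5 had enough counts to be tested, Atg2a, Atg2b, Atg3, Becn1 and Sqstm1. In the edgeR fit with the group alone 0 of the 5 passed an adjusted p of 0.05, where 0.0% of all 7667 genes did, and 257 genes, or 3.35%, had an unadjusted p under 0.05. Of the 4 members other than Atg2a, 0 had an unadjusted p under 0.05. The log2 fold change was below 0 for 3 of the 5, against 48.7% of all tested genes. DESeq2 with the group alone also called 0 genes, with 457 at an unadjusted p under 0.05. With the pairing, edgeR called 0 of the 5 members and 0.013% of all tested genes, limma-voom called 0 of the 5 and 0.248% of all, and DESeq2 called Atg2a alone of the 4 members to which it gave an adjusted p, against 0.393% of its 4325 genes in either direction and 0.0462% lower in EcTM. Since Atg2a was picked from that fit, this count says nothing more about the members.

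Becn1 encodes Beclin 1, the scaffold of the lipid kinase complex that marks the site of autophagosome formation. It had 113, 83.1, 104 and 77.0 CPM in E591, E592, E604 and E606, against 97.3, 129.9, 98.1 and 118 CPM in N591, N592, N604 and N606. The pairs split, with log2 ratios of -0.64 for E592 over N592 and -0.62 for E606 over N606, against 0.21 for E591 over N591 and 0.08 for E604 over N604. Its log2 fold change was -0.24 with a 95% interval of -0.61 to 0.13 (adjusted p 0.998, edgeR). It lies on chromosome 11 from 101288258 to 101302286 on the minus strand and overlaps Cntd1 on the other, and how strand was used in counting is not given in the sources used here.

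Atg3 encodes the E2-like enzyme that passes ATG8 proteins to the membrane lipid phosphatidylethanolamine, and lies on chromosome 16 from 45158829 to 45188538 on the plus strand. It had 125, 101, 122 and 83.3 CPM in E591, E592, E604 and E606, against 85.8, 112, 94.2 and 90.8 CPM in N591, N592, N604 and N606. The EcTM libraries spanned the whole range of the non-EcTM libraries and went beyond it at both ends. Its log2 fold change was 0.17 with a 95% interval of -0.20 to 0.54 (adjusted p 0.998, edgeR). That interval lies above the value of Atg2a, but this value was picked from the same comparison and has its own error. A difference between Atg3 and Atg2a was not tested.

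Sqstm1 encodes p62, the receptor that ties ubiquitinated cargo to ATG8 proteins and is itself degraded by autophagy. It had 16.7, 28.1, 14.5 and 19.3 CPM in E591, E592, E604 and E606, against 7.94, 19.6, 17.0 and 25.4 CPM in N591, N592, N604 and N606. At 20 to 77 counts per library it was the least precisely measured of the 5. Its log2 fold change was 0.17 with a 95% interval of -0.69 to 1.02 (adjusted p 0.998, edgeR). Its sign turned without E592 (-0.051) or without N591 (-0.075). Sqstm1 lies on chromosome 11 from 50200152 to 50210820 on the minus strand and overlaps Mrnip on the other.

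**Figure D1:**
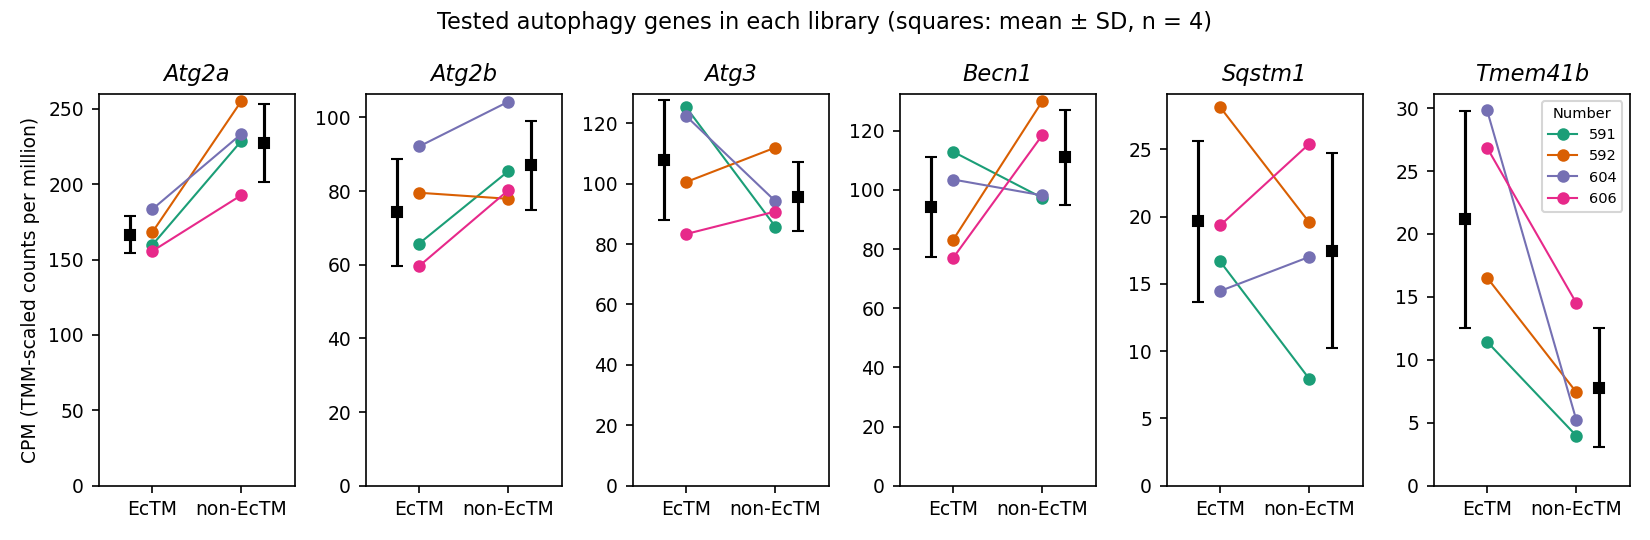
Level (CPM, linear axis from 0) of the 5 tested members and of Tmem41b in each library, EcTM left and non-EcTM right, with a line for each number pair and squares in black at the mean of each group, ± SD (n = 4). Atg2a goes one way in 4 of 4 pairs without overlap of the groups, Atg2b in 3 of 4 pairs with overlap, and the lines of Atg3, Becn1 and Sqstm1 cross.

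The other 5 members could not be compared. Ulk1, the kinase that starts autophagy, and Atg16l1, which places the conjugation machinery on membranes, were listed at 0 in all 8 libraries. A count of 0 still allows 3 counts, or 0.990 to 1.43 CPM in these libraries, a limit that covers counting error only. Atg7, the E1-like enzyme of the cascade, had 14 counts in EcTM, 10 of them in E591, and 2 in non-EcTM. Atg5, which forms part of the E3-like complex, had 6 counts in EcTM, all in E591, and 1 in non-EcTM. Atg9a, a scramblase that works with the ATG2 proteins, had 1 count in EcTM and 14 in non-EcTM, of which N592 and N606 held 6 each. No fold is given for counts this small.

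The members with few counts were set beside their number of curated RefSeq transcripts. Of the 10 members 2 have 1 curated transcript, Atg2a and Atg2b, and both were tested. Of the 8 with several, 5 were at 0 or under the filter on low counts. Becn1 (4 curated transcripts), Atg3 (2) and Sqstm1 (2) passed the filter, but whether their counts cover the whole gene was not tested. Over all 68 autophagy genes listed for this description, the median total over 8 libraries was 1325 counts for the 31 with 1 curated transcript, 483 for the 15 with 2 and 15.5 for the 22 with at least 3. Of the 31 with 1 transcript 0 were at 0 in all libraries, against 7 of the 37 with more. Over all genes of the table with a RefSeq match the medians were 5, 6 and 6 counts for 1, 2 and at least 3 transcripts, and 42.5%, 40.6% and 38.6% were at 0. The share with enough counts to be tested was 93.5%, 60.0% and 36.4% of the autophagy genes, against 32.9%, 29.5% and 27.2% of these genes. The part of the authors' counting in this was not tested, and a 0 here is not read as absence of the transcript.

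**Figure D2:**
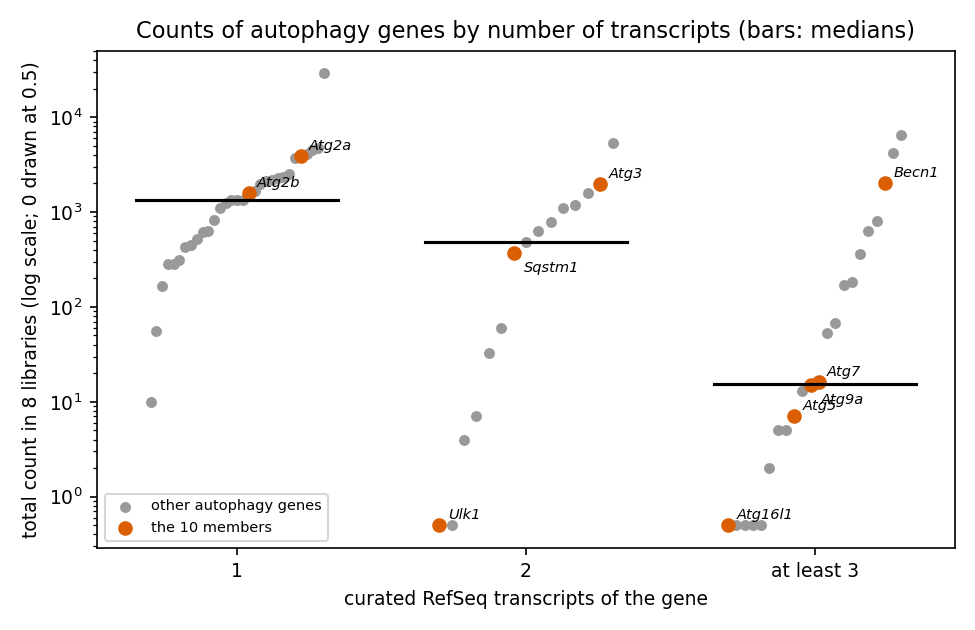
Total count over 8 libraries (log axis, 0 drawn at 0.5) of 68 autophagy genes, by number of curated RefSeq transcripts, with the 10 members in orange and bars at the medians. The medians are 1325, 483 and 15.5 counts for 1, 2 and at least 3 transcripts, and Ulk1 and Atg16l1 sit at 0.

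The wider machinery was described by lists of known roles, chosen with earlier results of these data known. Of the 68 genes 46 were tested. Their median log2 fold change was 0.01, as was that of all 7667 genes, and 23 lay below 0 and 23 above. Without Atg2a, 0 of the other 45 passed an adjusted p of 0.05 in edgeR, and 0 of those with an adjusted p did in paired DESeq2. Paired DESeq2 gave no adjusted p to Atg101, Atg16l2, Nrbf2 or Sqstm1, so it could not call them. Tmem41b, with 282 counts in all, had fewer than any of these. An unadjusted p under 0.05 in edgeR was found for 0 of the 45 in the lower direction, against 1.62% of all tested genes. Of these 45, 0 were lower in EcTM in 4 of 4 pairs, against 6.89% of all tested genes, and 4 were higher in 4 of 4 pairs (8.89%), against 7.24%. The 95% interval held 0 for 44 of them, and for 43 with the replicate block in edgeR, where Tmem41b and Vmp1 were the exceptions. In the fit with the group alone it reached to or below the value of Atg2a for 25, so that a decrease of that size cannot be told from none, and lay above it for 20. The value of Atg2a was picked from this comparison and has its own error, so these 20 are not shown to differ from Atg2a.

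In the initiation complex 4 of 5 genes were tested and 0 passed, with a median log2 fold change of -0.12. Ulk2, the second kinase of this family, has 1 curated transcript and stood at 230.4 ± 22.2 CPM in EcTM, against 250.3 ± 36.6 in non-EcTM (SD, n = 4 each). Its log2 fold change was -0.12 with an interval of -0.40 to 0.16. Atg101, which stabilises the complex, had -0.43 with a wide interval of -1.14 to 0.28, at 19.3 ± 7.35 CPM in EcTM, against 26.1 ± 3.55 in non-EcTM. It moved to -0.69 without E592 and -0.25 without E604.

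In the class III PI3-kinase complex 6 of 8 genes were tested and 0 passed, with a median of 0.15. Becn1 was the 1 gene of the 6 below 0. Pik3r4, the regulatory subunit also called VPS15, had a log2 fold change of 0.31 with an interval of -0.07 to 0.70. In 4 of 4 pairs the EcTM library was the higher, at 94.5 ± 8.89 CPM in EcTM, against 76.0 ± 13.5 in non-EcTM, although the groups overlapped. Atg14, which directs the complex to autophagy, had 0.26 with an interval of -0.35 to 0.88, and moved to 0.13 without E604 and 0.42 without E606.

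Among lipid transfer proteins, scramblases and WIPI proteins 7 of 10 genes were tested, and edgeR passed 0. The median was 0.10. Tmem41b, a scramblase of the endoplasmic reticulum that works with the ATG2 proteins and VMP1, had 11.4, 16.5, 29.8 and 26.9 CPM in E591, E592, E604 and E606, against 3.97, 7.44, 5.23 and 14.5 CPM in N591, N592, N604 and N606. Its EcTM level was above that of the same number in 4 of 4 pairs, and E591 lay below N606. The log2 fold change was 1.43 with an interval of 0.37 to 2.48, an unadjusted p of 0.0111 and an adjusted p of 0.998 (edgeR), so it did not pass, and 1.73% of all genes were higher with an unadjusted p under 0.05. With pairing the adjusted p was 0.697 in edgeR. Vmp1, the other scramblase of that site, stood at 231 ± 34.8 CPM in EcTM, against 197 ± 40.9 in non-EcTM, with the EcTM library the higher in 4 of 4 pairs. It had a log2 fold change of 0.23 with an interval of -0.10 to 0.56, and 0.24 with an interval of 0.0020 to 0.479 with the replicate block in edgeR (unadjusted p 0.0482, adjusted p 0.914). Vmp1 overlaps the microRNA gene Mir21a and the pseudogene Gm11478 on the same strand, and their part in its counts was not tested. Wipi2 and Wdr45b encode proteins that read the lipid mark at the site. Wipi2 was higher in EcTM in 4 of 4 pairs by log2 ratios of 0.01 to 0.12, with a log2 fold change of 0.05 that turned to -0.077 without E604 and -0.016 without N606. Wdr45b was higher in 3 of 4 pairs, with 0.35.

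In the conjugation cascade 5 of 11 genes were tested and 0 passed, with a median of -0.11. Besides Atg3, Atg16l2, a relative of Atg16l1, had -0.40 with an interval of -1.18 to 0.38. Of the ATG8 proteins 4 of 5 were tested and 0 passed, with a median of -0.06. Gabarap stood at 236 ± 32.8 CPM in EcTM, against 221 ± 12.0 in non-EcTM, with a log2 fold change of 0.09, and -0.0047 without E606. Map1lc3b, which encodes the LC3 protein used to mark autophagosomes, had 0.26 with an interval of -0.20 to 0.71, and Gabarapl1 had -0.21.

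Of the cargo receptors 8 of 11 were tested and 0 passed, with a median of 0.01. Wdfy3, the large adaptor for aggregates also called ALFY, had the smallest SE of the 46 tested autophagy genes, at 1472 ± 68.6 CPM in EcTM, against 1495 ± 83.1 in non-EcTM. Its log2 fold change was -0.02 with an interval of -0.20 to 0.15, and 0.018 without N592. Optn, a receptor for bacteria and mitochondria, had -0.33 with an interval of -1.07 to 0.42, and moved to -0.78 without E604 and -0.099 without E606. Of the genes for fusion with lysosomes 7 of 9 were tested and 0 passed, with a median of -0.12. Of the 7, 6 lay below 0, against 48.7% of all tested genes, and among these 6 Snap29 was at -0.0012. Epg5, a tether, had -0.25 with an interval of -0.59 to 0.09, Vamp8, a SNARE, had -0.25 and Plekhm1, an adaptor, had 0.10. Of the upstream regulators 5 of 9 were tested and 0 passed, with a median of 0.05. The transcription factor gene Foxo3 had 0.11 with an interval of -0.15 to 0.36.

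**Figure D3:**
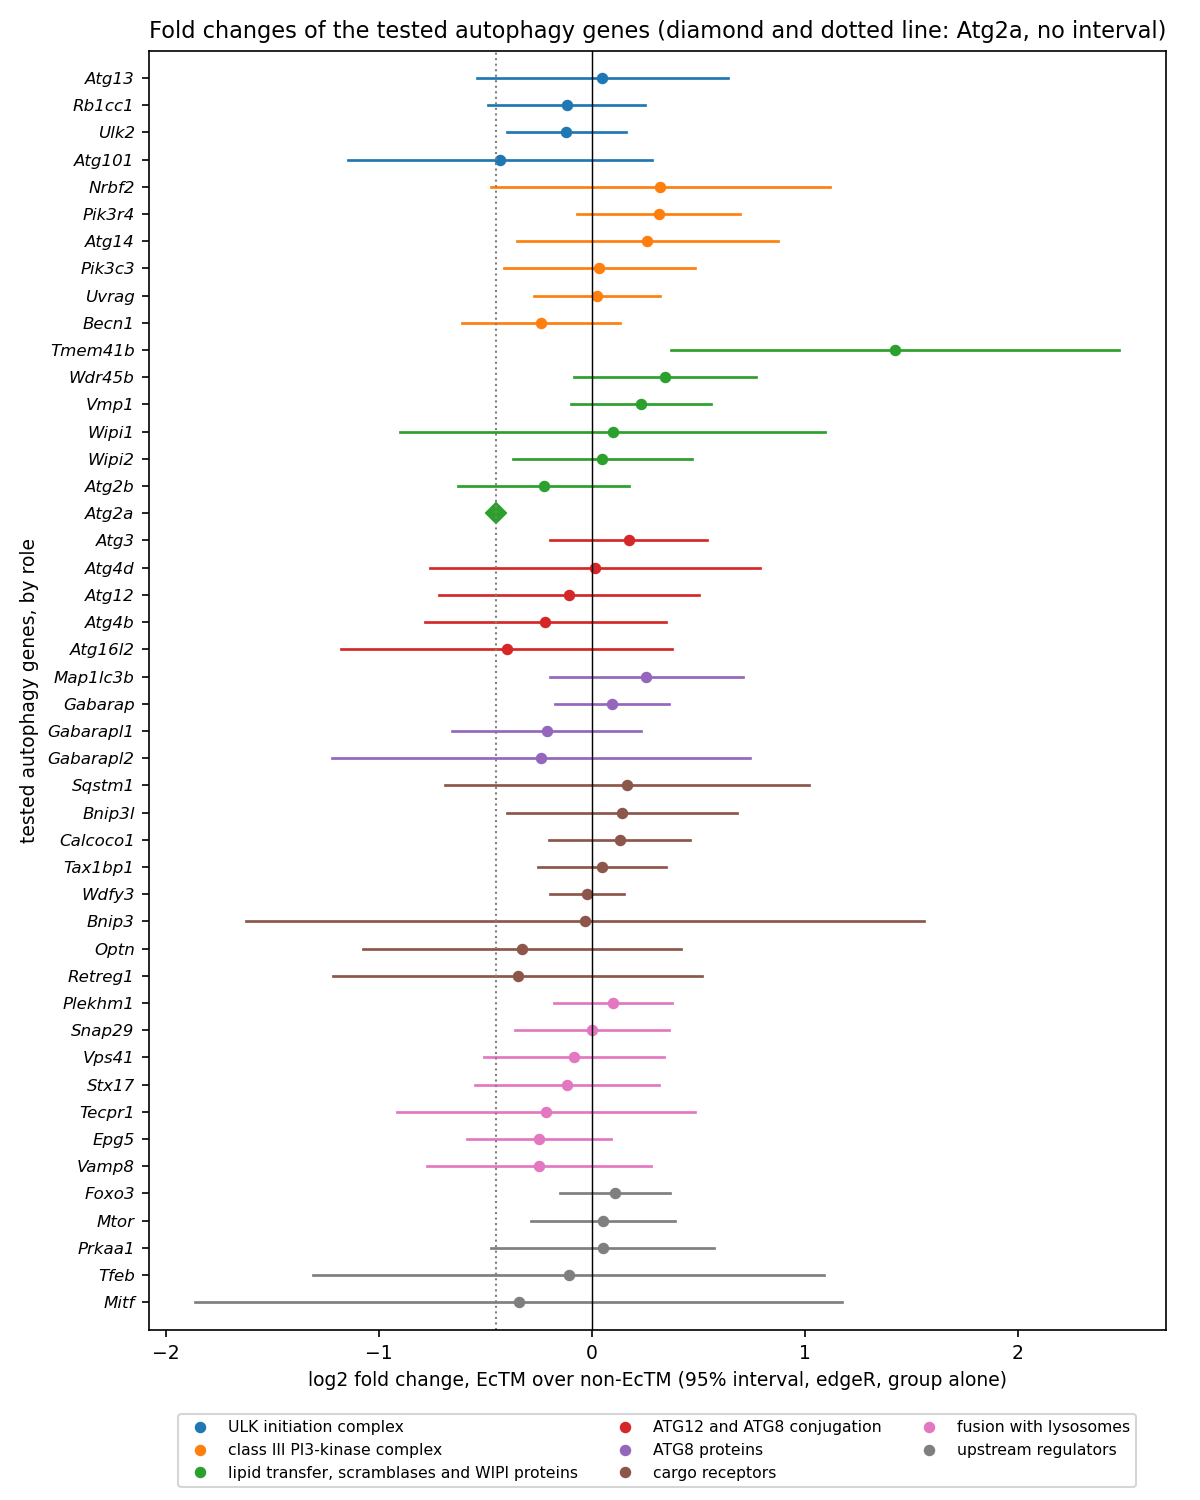
Log2 fold change of EcTM over non-EcTM (points) with 95% intervals (lines) for 46 tested autophagy genes in the edgeR fit with the group alone, coloured by role. Atg2a, the diamond at -0.45, is drawn without an interval because it was picked from this comparison. Of the other 45 genes, Tmem41b at 1.43 is the 1 whose interval does not hold 0 in this fit without pairing.

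The genes most like Atg2a over the 8 libraries were not autophagy genes of these lists. Among 5115 other genes whose mean log2 CPM was 4 or more, the highest Pearson r with the log2 CPM of Atg2a were 0.937 for 5031425E22Rik, 0.910 for Supt5, a transcription elongation factor, 0.910 for the kinase gene Uhmk1, 0.906 for the glucose-sensing transcription factor gene Mlxip and 0.894 for the actin-associated Afap1l1. These values describe 8 libraries that share numbers and depth, and part of each is the difference between the groups. Mlxip stood at 161 to 186 CPM in EcTM, against 196 to 245 in non-EcTM, and 5031425E22Rik at 28.1 to 40.8 CPM in EcTM, against 47.7 to 62.2 in non-EcTM, both without overlap of the groups. In the other 3 the groups overlapped: Supt5 stood at 333 to 377 CPM in EcTM, against 371 to 419 in non-EcTM, Uhmk1 at 42.3 to 59.6 CPM in EcTM, against 58.4 to 73.1 in non-EcTM, and Afap1l1 at 73.3 to 111 CPM in EcTM, against 96.4 to 153 in non-EcTM. Of the 7667 genes tested, 1.41% were lower in EcTM without overlap. Ranking by likeness to Atg2a, whose groups do not overlap, favours such genes. Over all 5115 genes the median r was near 0, and 32 were over 0.8. Of the members Atg2b had 0.636 (rank 177) and Becn1 0.525 (rank 404), while Atg3 had -0.10 (rank 3017) and Sqstm1 -0.35 (rank 4067). Pik3r4 had -0.83 (rank 5079).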

How the data were processed

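Per the labels' protocols, RNA of the sorted cells was extracted with the RNeasy plus micro kit and made into libraries with the SMARTer stranded total RNA kit (Pico). The submitters' processing notes name bcl2fastq 2.17, TopHat, DESeq2, R 3.2 and mm10. No source used here states the counting program, the annotation or the use of strand. The authors deposited read counts per gene for 8 libraries, and log2 values that the file headers call CPM. Results were computed from the counts, and the log2 values are given for Atg2a alone.

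The 7667 genes kept by filterByExpr were compared in edgeR 4.0.16 (R 4.3.3) by its quasi-likelihood test, after TMM scaling, with Benjamini-Hochberg adjustment over all of them and the group alone in the planned design. DESeq2 1.42.0 and limma-voom (limma 3.58.1) were alternatives. Log2 CPM use a prior count of 2. The fits were tested on simulated data with changes larger than that of Atg2a, so recovery of a change of its size was not tested. Pairing was checked on deviations from the group means: libraries sharing a number correlated across genes at 0.12 to 0.19 (Pearson, 4 of 4 pairs) and the 12 other pairs at -0.13 to 0.05. Genes are not independent replicates. The number served as a replicate block in alternative fits because equal numbers may pair libraries.

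Gene positions and transcript numbers come from RefSeq on GRCm38.p6, matched by Entrez number, and transcript lengths and overlaps from GENCODE. Of 10 members 8 had a promoter entry, and Atg16l1 and Becn1 are named only. Members and lists were chosen with earlier results of these data known. The naming rule takes all members, any gene of the autophagy lists, and the 5 genes most like Atg2a by Pearson r.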

Additional observations from a re-analysis of the deposited data

Results flagged for a closer look

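Libraries apart from the other 3 of their group were found in 4 of 18 groups of 4 compared. In all 4 the other 3 libraries are at 0, so that a single count sets a library apart, and the rate of about 1 in 20 groups that chance gives for other values does not apply. Atg5 stood at 2.86 CPM in E591, from 6 counts, and at 0 in the other EcTM libraries. In non-EcTM it stood at 0.391 CPM in N592, from 1 count. Atg7 stood at 0.872 CPM in N604, from 2 counts, and at 0 in the other non-EcTM libraries. Atg9a stood at 0.439 CPM in E604, from 1 count, and at 0 in the other EcTM libraries.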

How the results depend on the processing

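The count of genes past the threshold was 0 of 7667 in edgeR with the group alone. It was 1 in edgeR with the replicate block, 17 in DESeq2 and 19 in limma-voom with the replicate block, and 7 without a filter on low counts. Setting the filter of the paired DESeq2 fit for 0.05, an alternative chosen after seeing the data, gave 26. Leaving out single libraries without pairing gave 0 to 1 genes, and leaving out number pairs gave 1 to 2 in paired edgeR and 2 to 20 in paired DESeq2 (2, 6, 20 and 4 on leaving out the pairs of E591, E592, E604 and E606 in turn), the last also chosen after seeing the data. The count of members past the threshold was 0, and 1 (Atg2a) in both paired DESeq2 fits of all libraries. That adjusted p (0.0450), on which Atg2a was picked, is no independent test, and it depended on every pair. On leaving out a pair it was 0.177 for the pair of E591, 0.534 for that of E592, 0.0820 for that of E604 and 1.0 for that of E606. Over 27 alternatives the log2 fold change of Atg2a lay between -0.52 and -0.38. Atg2b ran from -0.35 to -0.13, Becn1 from -0.40 to -0.11, Atg3 from 0.03 to 0.28 and Tmem41b from 1.16 to 1.92.

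Of 23 genes followed, 19 kept their direction in the alternatives run. Sqstm1 turned to -0.051 without E592, -0.075 without N591, and -0.030 in edgeR and -0.023 in DESeq2, both with the replicate block and without E591 and N591, and its highest value on leaving out a single library was 0.405. Wipi2 turned to -0.077 without E604 and -0.016 without N606 (highest 0.142), Gabarap to -0.0047 without E606 (highest 0.149) and -0.00093 in paired edgeR without E606 and N606, and Wdfy3 to 0.018 without N592 (lowest -0.051). The cause was not tested. The replicate block changed no other call among these genes. Leaving out single libraries gave -0.18 to -0.036 for Ulk2, 0.20 to 0.38 for Pik3r4, 0.13 to 0.39 for Vmp1, 0.21 to 0.45 for Wdr45b, -0.64 to -0.17 for Atg16l2, 0.12 to 0.40 for Map1lc3b, -0.31 to -0.13 for Gabarapl1, -0.41 to -0.12 for Vamp8, 0.049 to 0.19 for Plekhm1 and 0.062 to 0.18 for Foxo3. A fit of genes with 1 curated transcript leaves out Becn1, Atg3 and Sqstm1. Intervals were wide for Sqstm1, Atg101, Atg16l2, Optn and Tmem41b, and Ulk1, Atg16l1, Atg5, Atg7 and Atg9a could not be compared.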
